A study of Macaca mulatta with 12 samples.

Results

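Genes that encode leukocyte surface molecules and cytotoxic granule proteins were followed in corpora lutea of rhesus macaques. The set was drawn up by gene symbol. It takes the CD molecules, the killer cell lectin-like receptors (KLR), the leukocyte immunoglobulin-like receptors (LILR), the Fc receptors of the FCGR and FCER families, the SIGLEC lectins, the MS4A membrane proteins, the CLEC lectins, the granzymes (GZM) and PTPRC, NKG7 and GNLY. CD36, CD53, CD40, CD27 and CD70 were left out. On the array this gave 114 of 14132 genes, measured by 235 of 52707 probe sets, and each gene was represented by its brightest probe set, judged by the mean of all 12 arrays. Symbols that no probe set carried alone, among them CD3D, CD3E, CD2, LCK, PRF1, KLRB1, CD163, FCGR2B, FCER1G and CD34, are not analysed here. Because the set follows a naming system, it also holds genes that leukocytes share with other cells: 18 members were listed as broadly expressed, 7 as endothelial, stromal or platelet genes and 11 as other or not assigned.

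The corpus luteum is built from the follicle after ovulation and makes progesterone until it regresses. Glands were removed from females with normal menstrual cycles, and RNA of the whole gland was hybridised to one-colour Affymetrix arrays, 1 array per gland and 4 per group. Late regressed glands came from days 14 to 16 after the LH surge with serum progesterone below 0.5 ng/ml. Late functional glands came from the same days with serum progesterone above 1.5 ng/ml. Mid-late glands, from days 10 to 12 and still secreting progesterone, were the baseline. Because a gland of unseparated cells was measured, a lower value from fewer cells of a type and one from less RNA per cell cannot be told apart, and the same holds for higher values.

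Leukocytes are recognised by the molecules on their surface. PTPRC (CD45) is carried by nearly all of them, CD14 and CD68 mark monocytes and macrophages, CD4 and CD8 mark T cells, and KLR receptors together with granzymes and granulysin mark natural killer (NK) and cytotoxic T cells, which kill by releasing granules. Macrophages, T cells and NK cells are known residents of the primate corpus luteum, where macrophages clear dying luteal cells as the gland regresses.

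All levels are deposited RMA log2 values, and a level followed by ± is a group's mean and its SD over 4 arrays (n = 4). A difference is the first-named group's mean minus the second's on that log2 scale, and its standard error (SE) is that of limma's fit. A gene was called, and is said to have risen or fallen, where limma's p adjusted by Benjamini-Hochberg over all 52707 probe sets was below 0.05. As a mark of low signal, the 95th percentile of 674 probe sets with the identifier prefix NC and no gene symbol (4.64) was used, and 69 of the 114 members had a mean above it. The other 45 are counted below as low, and 31 of those were below 4.64 on every array. Late regressed arrays 2 and 3 stood apart from the other 10 arrays on the first principal component, at 93.2 and 81.6 against at most 12.6. Array 2 also had a 3′ to 5′ control difference of 2.52, against 0.46 to 0.70 on the other arrays. The mean of the NC probe sets was 3.55 ± 0.05 in late regressed, 3.57 ± 0.04 in late functional and 3.69 ± 0.05 in mid-late arrays, with every late array below every mid-late one. Of the labelled tissue's own markers, all 10 measured genes of steroidogenic luteal cells were above 4.64.

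Late regressed against mid-late glands is the comparison of low progesterone with the baseline. In it 11 members rose and 4 fell. That is 13.2% of the members, and 13.1% of all 14132 genes were called, so the share called says nothing particular about these genes. By direction, 9.65% of the members rose against 7.6% of all genes, and 3.51% fell against 5.51%. The largest increases were those of CD83, CD48, GNLY, CLEC14A and CD9, between 2.74-fold and 3.97-fold, and the decreases were at most 1.57-fold, that being the value of a LILRB1 probe set against which the gene's other 3 probe sets go. The median difference over the members was 0.07, beside -0.02 over all genes. The arrays of the groups did not overlap for 15 members that were higher (13.2%, beside 10.8% of all genes) and for 9 that were lower (7.89%, beside 9.96%). At an unadjusted p below 0.05, 38 members (33.3%) passed, beside 35.8% of all genes.

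The lineages differed in where their members lay. The 4 pan-leukocyte members had a median difference of 1.27 and the 18 broadly expressed ones of 0.27. Medians were 0.15 for 43 myeloid, 0.02 for 10 NK and cytotoxic, -0.08 for 12 T cell and -0.14 for 7 B cell and plasma cell members. The quartiles of the difference over all genes were -0.19 and 0.22.

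**Figure D1:**
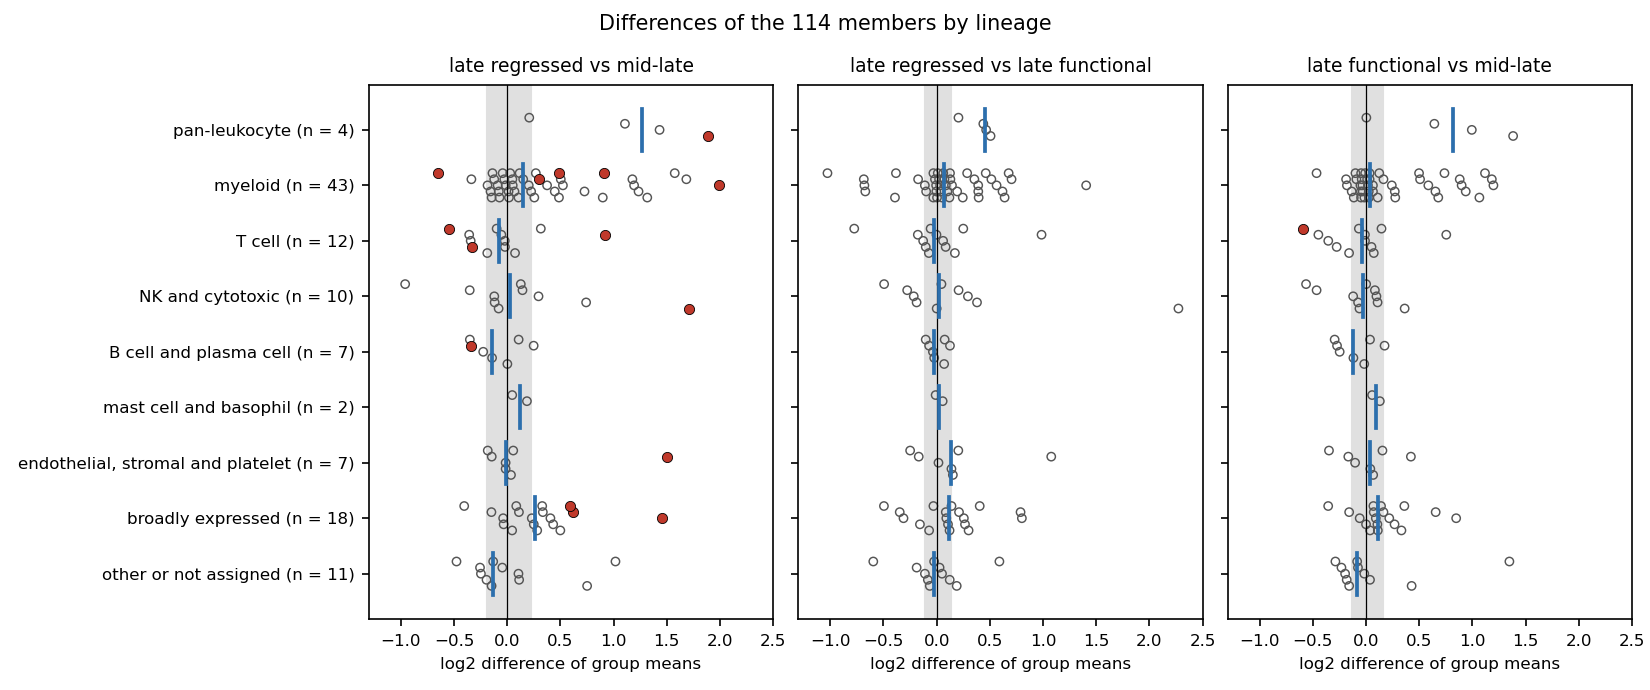
Log2 differences of the group means (x axis) for the 114 members in rows by lineage, in 3 panels: late regressed against mid-late, late regressed against late functional, and late functional against mid-late. Each circle is a gene, filled red where limma called it; the blue bar is the median of the lineage and the grey band runs between the quartiles of all 14132 genes. In the left panel the pan-leukocyte median is 1.27 and the T cell median -0.08, and only CD5 is called in the right panel.

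Among the pan-leukocyte genes, CD48, a leukocyte surface ligand of the receptor CD244, rose 3.70-fold. It read 8.15, 9.47, 10.05 and 7.62 on late regressed arrays 1 to 4, and 8.23, 8.08, 8.69 and 8.26 on late functional arrays. The mid-late arrays read 6.15, 7.08, 7.47 and 7.02. All late regressed arrays thus lay above all mid-late ones, arrays 2 and 3 far above and array 4 narrowly (log2 difference 1.89, SE 0.46, adjusted p = 0.0293). PTPRC, the phosphatase CD45, read 7.25, 8.86, 9.33 and 6.71 on late regressed arrays and 5.48, 6.69, 7.32 and 6.94 on mid-late arrays. These ranges overlapped, and its difference of 1.43 (SE 0.54) was not called (adjusted p = 0.104). The remaining pair, named here after its values were seen, were CD37, a tetraspanin of leukocytes, at 1.11 (adjusted p = 0.0537) and CD69, an early activation marker that was low on every array, at 0.21. Each of the 4 genes read highest of all 12 arrays on late regressed array 3. Without array 2 or array 3 of the late regressed group, or array 1, 2 or 4 of the mid-late group, CD48 lost its call, with differences of 1.48 to 2.29 over the 12 omissions. The mean over the probe sets of CD48 was not called either. PTPRC was called when late regressed array 4 was left out, at 1.88 (adjusted p = 0.0356).

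The 43 myeloid members held 4 that rose and 1 that fell, and 22 of them were low. CD83, a surface molecule of mature dendritic cells that activated macrophages and lymphocytes also carry, had the largest increase of the whole set. Late regressed arrays read 7.08, 9.39, 10.13 and 7.47 for it, late functional arrays 7.05, 7.04, 7.17 and 7.19, and mid-late arrays 6.16, 6.49, 6.87 and 6.59. Arrays 2 and 3 carried most of the rise and arrays 1 and 4 exceeded the mid-late range only slightly (1.99, SE 0.54, adjusted p = 0.0411). CD300A, an inhibitory receptor of myeloid and NK cells, averaged 5.31 ± 0.69 in late regressed and 4.40 ± 0.12 in mid-late arrays and also rose (0.91, adjusted p = 0.0480). For both genes the call held in only 2 of 12 omissions of a single array, those of late regressed array 1 or 4. Over these omissions the difference ranged from 1.45 to 2.47 for CD83 and from 0.60 to 1.14 for CD300A. CD300A also lost its call on the mean over its probe sets.

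The textbook macrophage genes of the set were not called. CD68, a protein of macrophage lysosomes, read 8.21, 9.71, 10.75 and 8.18 in late regressed against 6.70, 7.48, 8.03 and 7.90 in mid-late glands. Its groups did not overlap, and its difference of 1.68 (SE 0.51) just missed the threshold (adjusted p = 0.0549). It was called without late regressed array 1 or 4 (up to 2.03) and in 4 other fits. CD14, the lipopolysaccharide co-receptor of monocytes and macrophages, averaged 9.26 ± 0.98 in late regressed and 8.09 ± 0.80 in mid-late arrays (1.18, adjusted p = 0.115). CLEC4A, an inhibitory lectin of dendritic cells and monocytes, differed by 1.58 (adjusted p = 0.115) and the macrophage membrane protein MS4A7 by 1.19 (adjusted p = 0.107). Differences were smaller and not called for the Fc receptor FCGR3 (0.90, low mean signal), the sialic acid-binding receptor SIGLEC1 of tissue macrophages (0.27) and the fungal glucan receptor CLEC7A (0.05).

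Myeloid members differed in how they ran across the late regressed arrays. Over the 21 with a mean above 4.64, late regressed arrays 1 to 4 deviated from the mid-late mean by 0.22, 0.72, 1.27 and 0.16 on average. The deviation was between 0.41 and 0.53 on the late functional arrays, and -0.43, -0.19, 0.44 and 0.18 on mid-late arrays 1 to 4. Late regressed array 3 was therefore the highest and mid-late array 1 the lowest, while the late functional arrays differed little among themselves. Of all 43 myeloid members, 18 read highest on late regressed array 3 and 14 read lowest on mid-late array 1. Of all genes, 11.9% read highest on the first of these arrays and 11.1% lowest on the second.

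**Figure D2:**
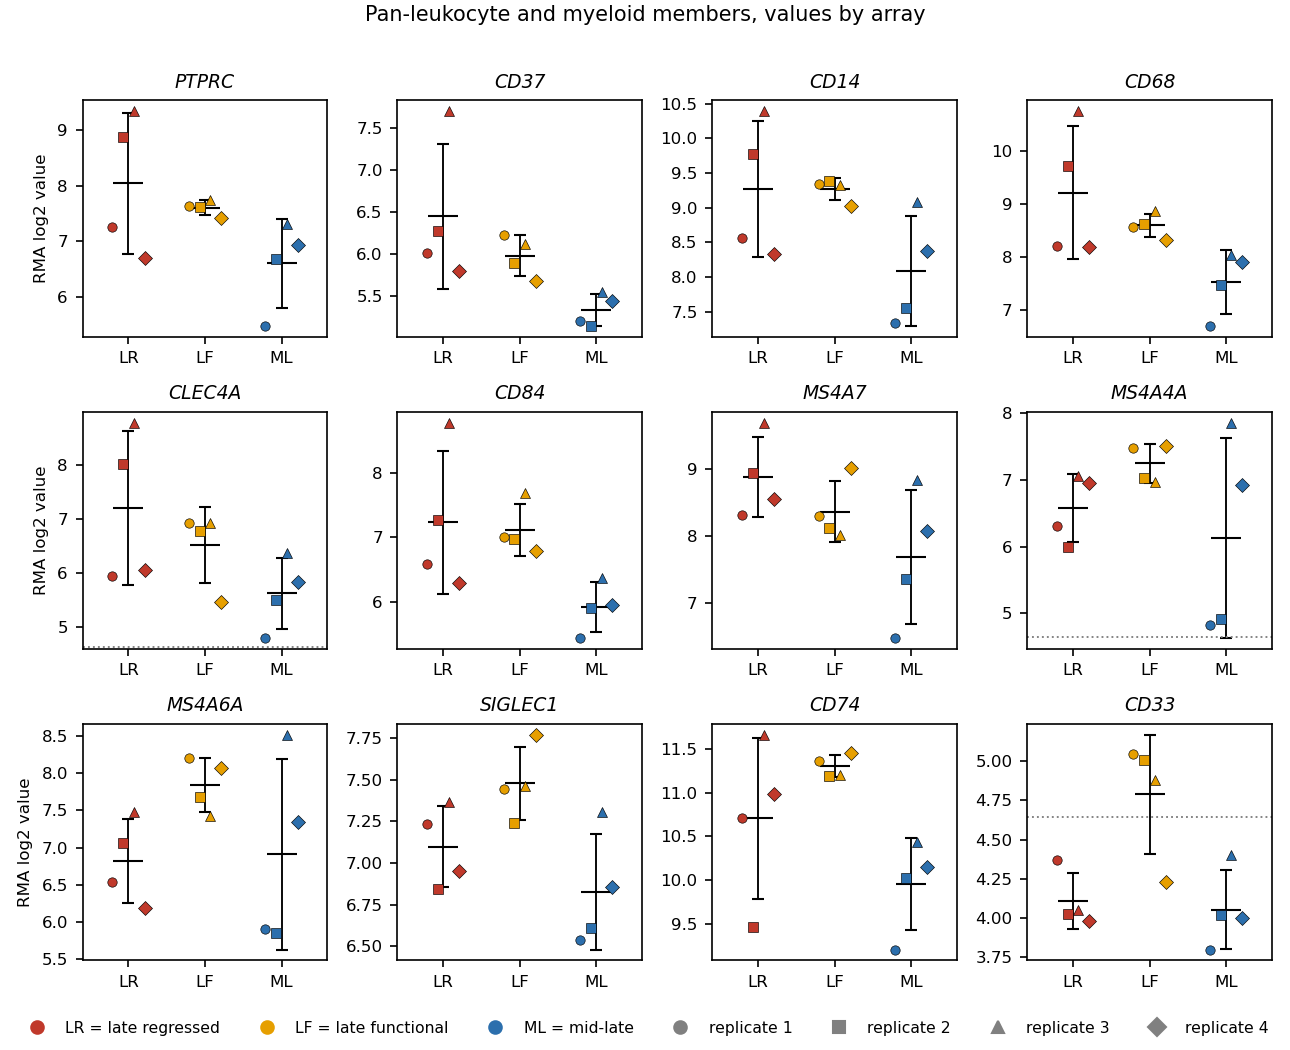
RMA log2 values (y axis) of 12 pan-leukocyte, myeloid and antigen-presenting genes on each array, with late regressed (LR), late functional (LF) and mid-late (ML) groups from left to right. Symbols are arrays 1 to 4, the bar is the mean, whiskers are SD and the dotted line is the low-signal mark of 4.64. CD68 reads 9.71 and 10.75 on late regressed arrays 2 and 3, and CD14 lies between 9.03 and 9.38 on the late functional arrays.

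The remaining called myeloid members belong to gene families whose copies are alike, and their probe sets did not agree. LILRB1, an inhibitory receptor for MHC class I, read 9.32, 8.96, 8.95 and 9.40 in late regressed glands against 9.90, 9.72, 9.76 and 9.86 in mid-late ones. It fell by 0.65 (SE 0.13, adjusted p = 0.0167) with no overlap, and the call held in each of the 12 omissions of a single array. The other 3 probe sets with this symbol were higher in late regressed glands, by 0.44, 2.04 and 1.90, and none of them was called. The mean over the probe sets gave 0.93 (adjusted p = 0.119), so no direction is assigned to LILRB1. LILRA1, an activating receptor of the same cluster, rose by 0.30 (adjusted p = 0.0350), a 1.23-fold difference, whereas its 4 other probe sets ran from -0.55 to 0.47. CD1E, a lipid-antigen protein of dendritic cells, rose by 0.49 (adjusted p = 0.0439), but its 2 other probe sets were low and lower in late regressed glands, by 0.32 and 0.17. LILRA1 kept its call in 4 and CD1E in 3 of the 12 omissions of a single array.

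T cell members mostly stayed near their mid-late level or below it. Of 12 members, CD244 rose, CD6 and CD160 fell, 9 were not called and 5 were low. CD244, a receptor of NK and memory CD8 T cells that binds CD48, read 7.30, 7.94, 7.42 and 7.05 in late regressed glands. It read 6.39, 6.11, 6.24 and 7.02 in late functional and 6.22, 7.00, 6.49 and 6.33 in mid-late glands. The late regressed values lay just above the highest value of both other groups (0.92, SE 0.24, adjusted p = 0.0355 against mid-late), and the call held in 6 of 12 omissions. On the mean over the gene's probe sets CD244 was not called. CD6, a scavenger-type co-receptor of T cells, read 4.64, 4.31, 4.41 and 4.58 in late regressed against 5.04, 5.04, 4.87 and 5.20 in mid-late glands. It fell by 0.55 (SE 0.10, adjusted p = 0.0109), all late regressed values being near the low-signal mark, while its 2 other probe sets differed by 0.04 and 0.01. CD160, a receptor of cytotoxic lymphocytes, fell by 0.33 (adjusted p = 0.0137) at values under 4.64 on all 12 arrays. Both decreases were called in each of the 12 omissions of a single array.

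The co-receptors that define helper and cytotoxic T cells were not called. CD4, which macrophages also carry, averaged 5.68 ± 0.65 in late regressed and 5.70 ± 0.43 in mid-late arrays, a difference of -0.02 with a 95% interval of -0.65 to 0.60. Late regressed array 2 read 4.70 for CD4, far below the 5.93 to 6.06 of the other arrays of its group, and without it the difference was 0.30. CD8A averaged 5.05 ± 0.48 in late regressed and 5.11 ± 0.24 in mid-late arrays (-0.05, interval -0.50 to 0.39). A further 3 T and NK genes outside the set, TCF7, ZAP70 and LAT, differed by at most 0.06. They are those measured of 9 listed, TCF7 was low, and LAT ranged from 7.80 to 9.03 on the late regressed arrays.

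Among the 10 NK and cytotoxic members, GNLY alone was called. It encodes granulysin, a pore-forming granule peptide, and read 8.82, 8.98, 9.30 and 9.05 on late regressed arrays. Late functional arrays read 6.43, 6.30, 6.45 and 7.90, and mid-late arrays 8.07, 7.81, 7.14 and 6.30. The late regressed arrays lay close together and above both other groups, which spread more widely. GNLY rose 3.27-fold over mid-late glands (1.71, SE 0.40, adjusted p = 0.0257), in 10 of the 12 omissions, with a difference of 1.37 to 1.96. The call was lost without late regressed array 3 or mid-late array 3. This probe set is of a type that can match more than 1 transcript. The other GNLY probe set averaged 5.17 in late regressed and 5.20 in mid-late glands, with a difference of -0.03, so the rise rests on 1 of 2 probe sets.

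The granzymes, the serine proteases of the same granules, did not move together. GZMA read 8.34, 7.69, 8.98 and 9.39 on late regressed arrays and 7.69, 8.01, 7.84 and 7.90 on mid-late arrays. Late regressed array 2 sat at the bottom of the mid-late range and arrays 1, 3 and 4 above it (0.74, SE 0.29, adjusted p = 0.112), and without array 2 the difference was 1.05 and called (adjusted p = 0.0207). GZMB read 12.54, 9.49, 11.03 and 12.90 on late regressed arrays against 11.99, 11.86, 13.02 and 12.92 on mid-late arrays. Its mean was lower in late regressed glands by 0.96 (SE 0.66, adjusted p = 0.357) through arrays 2 and 3, and the difference was 0.27 without them. GZMK differed by 0.14 (adjusted p = 0.730). KLRD1 (CD94), the partner chain of NKG2 receptors, differed by 0.29 (adjusted p = 0.344), with its 2 highest values on late regressed arrays 2 and 3. NKG7, a granule membrane protein, differed by -0.12 (adjusted p = 0.591), and its lowest value, 4.43, was that of late regressed array 2.

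**Figure D3:**
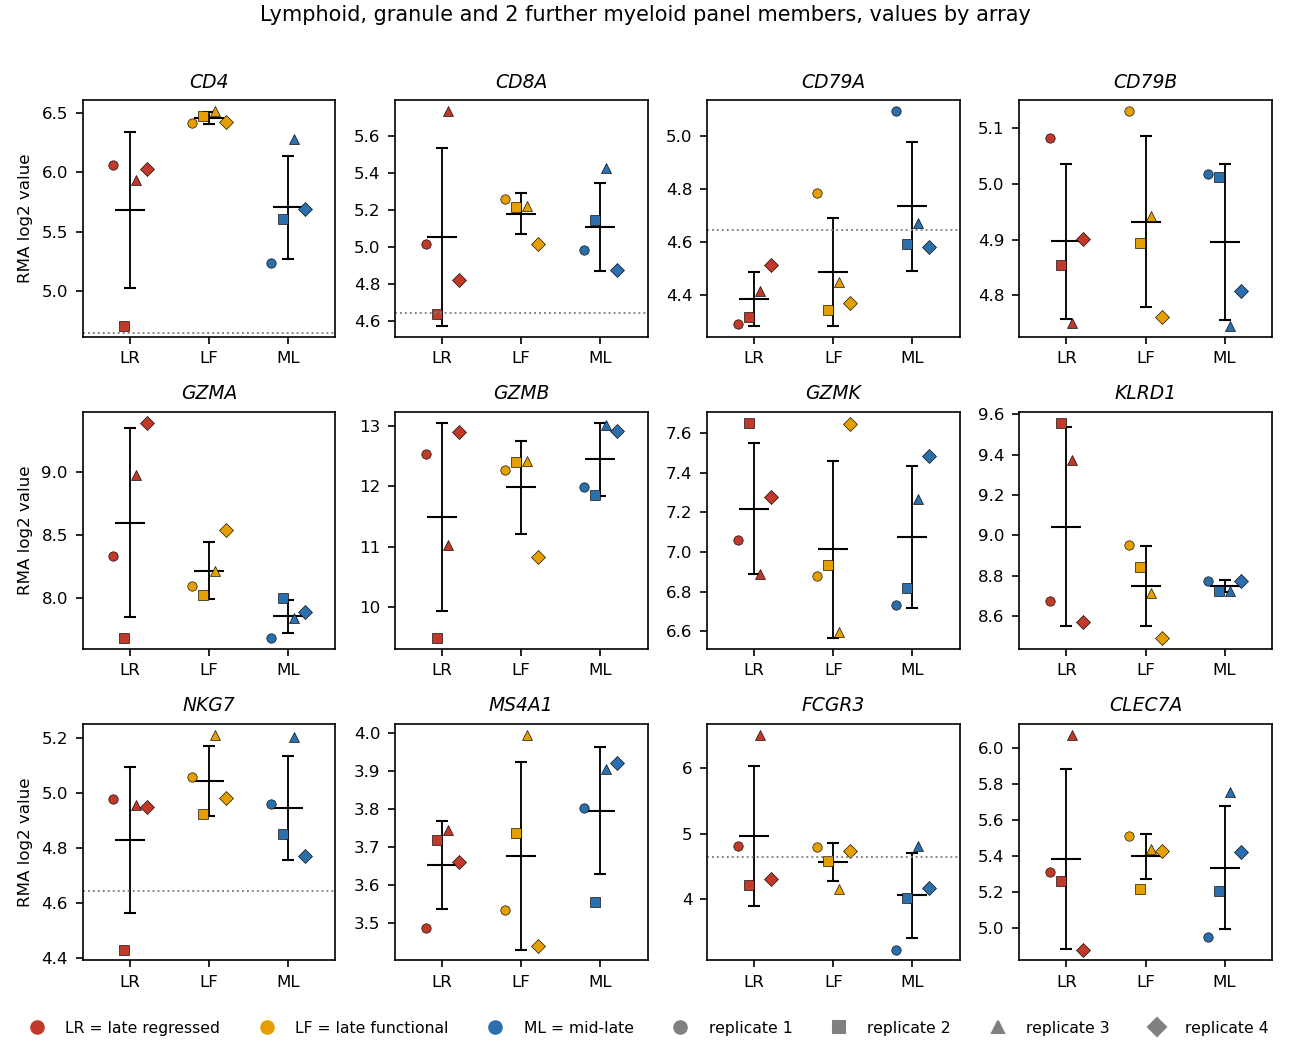
RMA log2 values (y axis) of 12 lymphoid, granule and further myeloid genes on each array, with late regressed (LR), late functional (LF) and mid-late (ML) groups from left to right. Symbols are arrays 1 to 4, the bar is the mean, whiskers are SD and the dotted line is the low-signal mark of 4.64. CD4 and NKG7 are lowest on late regressed array 2, at 4.70 and 4.43, and GZMB spans 9.49 to 12.90 within the late regressed group.

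Of the 7 B cell and plasma cell members, 4 had a mean above 4.64, the lectin CD22, CD24, CD79B and the costimulatory ligand CD80, and no value of any of the 7 exceeded 5.42 (CD22 and CD80 are named after their values were seen). MS4A1 (CD20), the classic marker of B cells, averaged 3.65 ± 0.12 in late regressed and 3.80 ± 0.17 in mid-late arrays, under 4.64 throughout. CD79A and CD79B, the signalling chains of the B cell receptor, differed by -0.35 (adjusted p = 0.0994) and 0.00 (adjusted p = 0.994). CD24, which epithelial and other cells also carry, fell by 0.34 (adjusted p = 0.0293), in 9 of the 12 omissions. Its 2 other probe sets, both low, were higher in late regressed glands, by 0.78 and 0.56, and neither was called. Both mast cell and basophil members, FCER1A and MS4A2, were under 4.64 on every array and are named after their values were seen.

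The steadiest increases belonged to members that are not restricted to leukocytes. CLEC14A, a C-type lectin of endothelial cells, read 8.05, 9.39, 8.76 and 8.72 in late regressed glands. It read 7.37, 7.40, 7.47 and 8.38 in late functional and 7.11, 7.31, 7.26 and 7.26 in mid-late glands. The mid-late values were nearly alike and all late regressed ones lay above them (1.50, SE 0.27, adjusted p = 0.0109). CD9, a tetraspanin of many cell types, read 9.71, 10.23, 10.63 and 10.98 in late regressed, 9.23, 9.54, 9.41 and 10.16 in late functional and 9.31, 8.68, 8.79 and 8.95 in mid-late glands. It rose by 1.46 (SE 0.27, adjusted p = 0.0116), and all 3 of its probe sets were called. CLEC14A and CD9 were called in all 12 omissions of a single array, with differences of 1.28 to 1.73 and of 1.26 to 1.68. The tetraspanin CD82 rose by 0.59 (adjusted p = 0.0201), in 9 of 12 omissions, while its second probe set differed by 0.03. CD44, the hyaluronan receptor, rose by 0.62 (adjusted p = 0.0348), in 5 of 12 omissions, with only late regressed array 3 above 4.64. The other 15 broadly expressed members and the other 6 endothelial, stromal and platelet members were not called. Beside CLEC14A, 4 of 10 measured endothelial marker genes outside the set rose (TEK, CLDN5, ERG and SOX17), beside 7.6% of all genes, and none fell. That marker list was chosen with earlier results of these data known, so its share is not an independent test. The mean level of that marker list was 8.67 to 9.02 in late regressed and 8.52 to 8.68 in mid-late arrays.

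**Figure D4:**
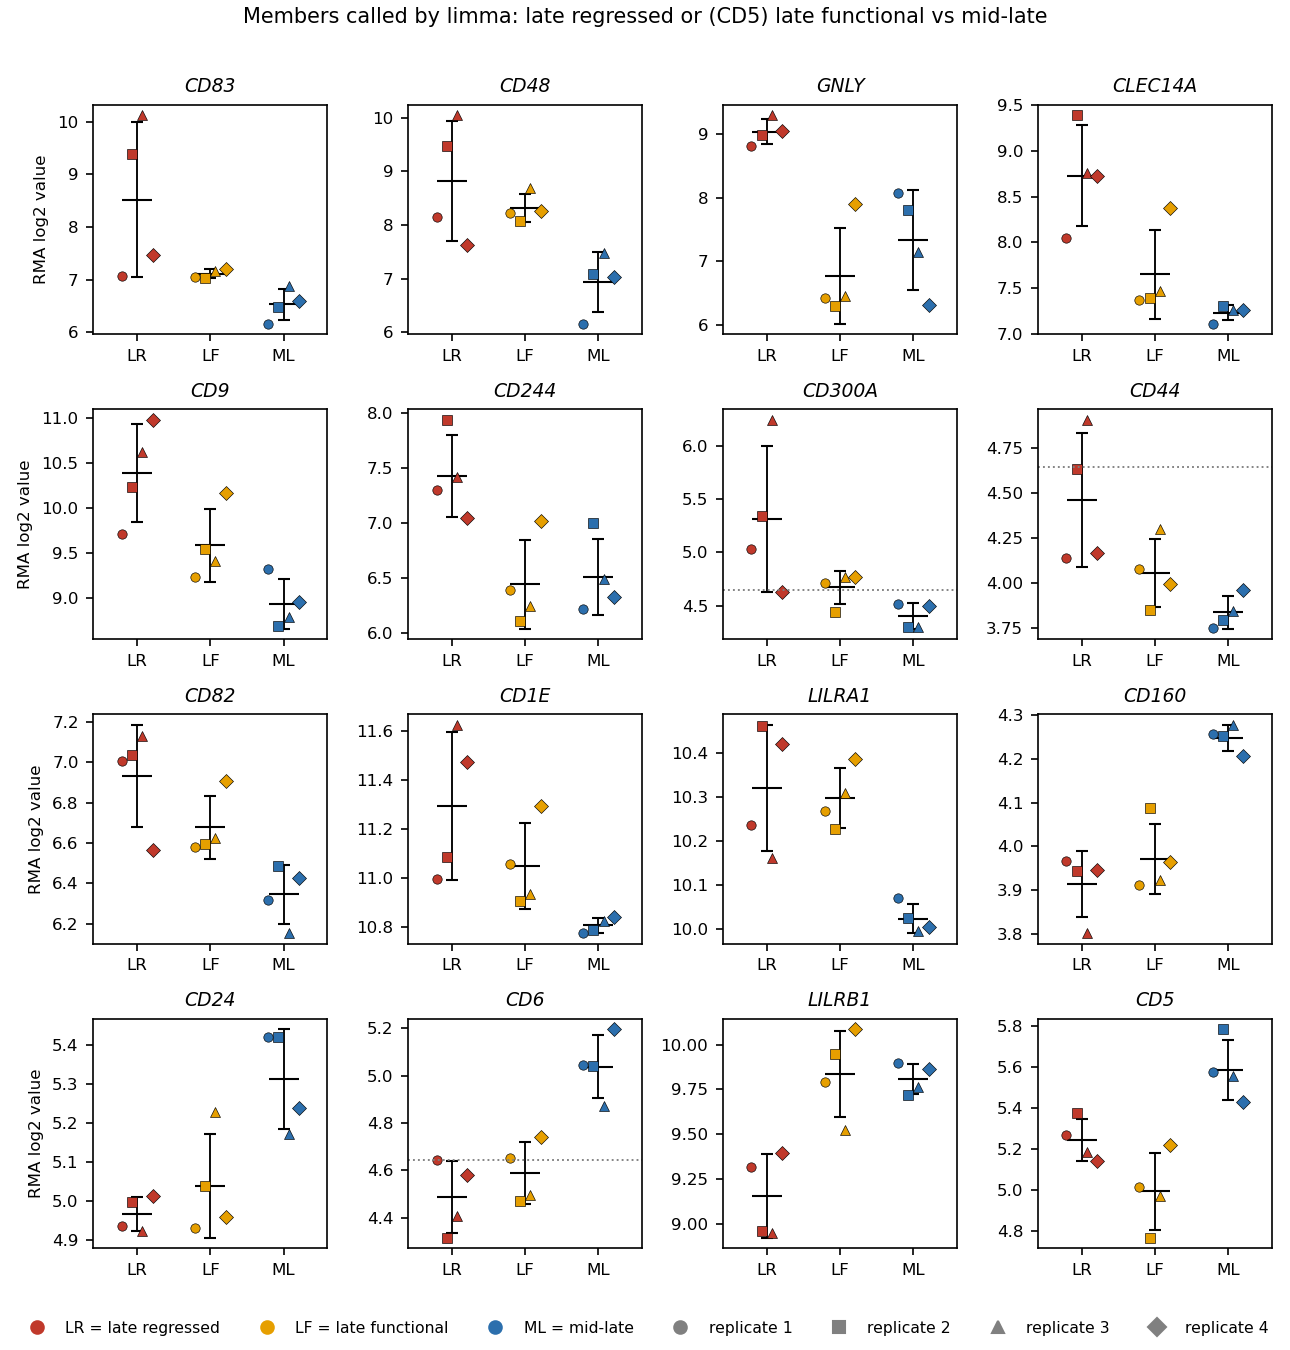
RMA log2 values (y axis) of the 15 members called between late regressed (LR) and mid-late (ML) glands and of CD5, called between late functional (LF) and mid-late glands. Symbols are arrays 1 to 4, the bar is the mean, whiskers are SD and the dotted line, where in range, is the low-signal mark of 4.64. CD83 reads 9.39 and 10.13 on late regressed arrays 2 and 3 and 7.08 and 7.47 on arrays 1 and 4, whereas GNLY lies between 8.82 and 9.30 on all 4.

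Late regressed against late functional glands compares low with high progesterone at the same days. No member was called. Of all genes, 1 was called (0.00708%). At an unadjusted p below 0.05, 17 members (14.9%) passed, beside 16.1% of all genes. The arrays did not overlap for 3 members that were higher in late regressed glands (2.63%, beside 2.63% of all genes) and 4 that were lower (3.51%, beside 3.28%). GNLY had the largest difference, 4.83-fold (2.27, SE 0.40, adjusted p = 0.103), with every late regressed array above every late functional one. Without cross-hybridising probe set types the GNLY difference was 0.01, so here too it rests on 1 of 2 probe sets. CD83 differed by 1.41 (SE 0.54, adjusted p = 0.345) and CLEC14A by 1.08 (SE 0.27, adjusted p = 0.194). The late regressed group overlapped the late functional one for CD83 and for CLEC14A. GNLY was called without late functional array 4, whose value of 7.90 was the highest of its group (2.65, adjusted p = 0.0186), or without late regressed array 1 (2.35, adjusted p = 0.0331). Without late regressed array 1, 5 members were called beside 2.81% of all genes: GNLY, CLEC14A at 1.31, and as lower CD320, CD47 and LILRB1. With all arrays the other 3 LILRB1 probe sets were higher in late regressed than in late functional glands, by 0.46, 0.58 and 0.54, and the other CD47 probe sets ran from -0.15 to 0.38, so neither gene is assigned a direction. Without late functional array 4, 2 members were called beside 0.481% of all genes, GNLY and CD33 at -0.87, of which CD33 was low. CD320, CD47 and CD33 are named after their values were seen.

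Late functional against mid-late glands compares 2 stages that both secrete progesterone. Its mid-late arrays are those of the late regressed comparison, so the differences are not independent of each other. Of the members 1 was called, as lower (0.877%, beside 1.17% of all genes, 0.58% of them higher and 0.594% lower). CD5, a T cell and B-1 cell receptor that damps antigen receptor signalling, read 5.02, 4.77, 4.97 and 5.22 in late functional against 5.58, 5.78, 5.56 and 5.43 in mid-late glands. It fell by 0.59 (SE 0.11, adjusted p = 0.0363) with no overlap, in 6 of 12 omissions. The call was lost without late functional array 1, 2 or 3 or mid-late array 1, 2 or 3, at differences of -0.60 to -0.52. It was also lost on the mean over the gene's probe sets. At an unadjusted p below 0.05, 24 members (21.1%) passed, beside 20.1% of all genes.

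Among the members, the 3 largest differences of this comparison that were not called were positive. CD48 differed by 1.38 (SE 0.46, adjusted p = 0.147). CD74, the invariant chain that guides MHC class II molecules in antigen-presenting cells, read 11.36, 11.19, 11.21 and 11.45 on late functional against 9.21, 10.03, 10.44 and 10.15 on mid-late arrays (1.35, SE 0.39, adjusted p = 0.107). CD84, a SLAM-family receptor of leukocytes, differed by 1.20 (SE 0.45, adjusted p = 0.183). For all 3, every late functional array lay above every mid-late one, and the late functional arrays were close together. The arrays did not overlap for 18 members that were higher in late functional glands (15.8%, beside 10.4% of all genes) and for 8 that were lower (7.02%, beside 8.5%).

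How many members were called here depended on whether the late regressed arrays entered the estimate of the spread. With only the late functional and mid-late arrays in the fit, the group means were the same and 14 members were called, 10 higher and 4 lower (beside 6.34% of all genes). The higher ones were CD48, CD74, CD84, CD68, SIGLEC11, CD4, CD37, CD83, CLEC12A and LILRA1, and the lower ones CD160, CD6, MS4A3 and CD5. Of these, CLEC12A and CD160 were low. With late regressed arrays 2 and 3 left out, 12 of these 14 were called, all but SIGLEC11 and LILRA1 (beside 5.71% of all genes). CD48 then had an adjusted p of 0.0206, CD74 of 0.0146 and CD84 of 0.0211. These are the fits of an alternative design, and the called genes outside the panel are named after their values were seen. Macrophage marker genes outside the set had a mean level of 8.20 to 8.45 on late functional and of 6.38 to 8.15 on mid-late arrays, all 10 measured ones above 4.64, and their part in these differences was not tested.

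Across the 3 groups together, limma's F test called 9 members (7.89%, beside 6.65% of all genes): CD82, CD9, CLEC14A, LILRB1, GNLY, CD160, CD244, CD5 and CD6. The mean of the late functional group lay between the other 2 means for 55 members, above both for 27 and below both for 32. In 38 members the means fell in the order late regressed, late functional, mid-late, among them all 4 pan-leukocyte and 17 of 43 myeloid members. The orders of the means were not counted over all genes, so these counts cannot be read as particular to the members. SD was largest in the late regressed group for 66 of 114 members, all 4 pan-leukocyte members included, beside 58.9% of all genes.

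Late regressed arrays 2 and 3, which stand apart, carried much of some increases and little of others. Late regressed array 3 gave the highest value of all 12 arrays for 37 of the 114 members, beside 11.9% of all genes. Array 2 did so for 15 members, beside 21.2% of all genes. With arrays 2 and 3 left out together, no member was called between late regressed and mid-late glands, beside 361 of all genes (2.55%). The fit then rests on 2 late regressed arrays. The pan-leukocyte median was 0.47 in place of 1.27 and the myeloid median 0.05 in place of 0.15. CD83 then differed by 0.75 (adjusted p = 0.0549), CD48 by 0.95 (adjusted p = 0.125), PTPRC by 0.37 and CD14 by 0.36. CD300A was at 0.43 in place of 0.91 and CD44 at 0.32 in place of 0.62. The difference moved less for CD9 at 1.41 (adjusted p = 0.0586), GNLY at 1.61 (adjusted p = 0.120) and CLEC14A at 1.15 (adjusted p = 0.0555). The differences of the other 4 members that rose were 0.66 for CD244, 0.44 for CD82, 0.43 for CD1E and 0.31 for LILRA1, beside 0.92, 0.59, 0.49 and 0.30 with all arrays. GZMA was higher without the pair than with it, at 1.01 in place of 0.74 (adjusted p = 0.0600).

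**Figure D5:**
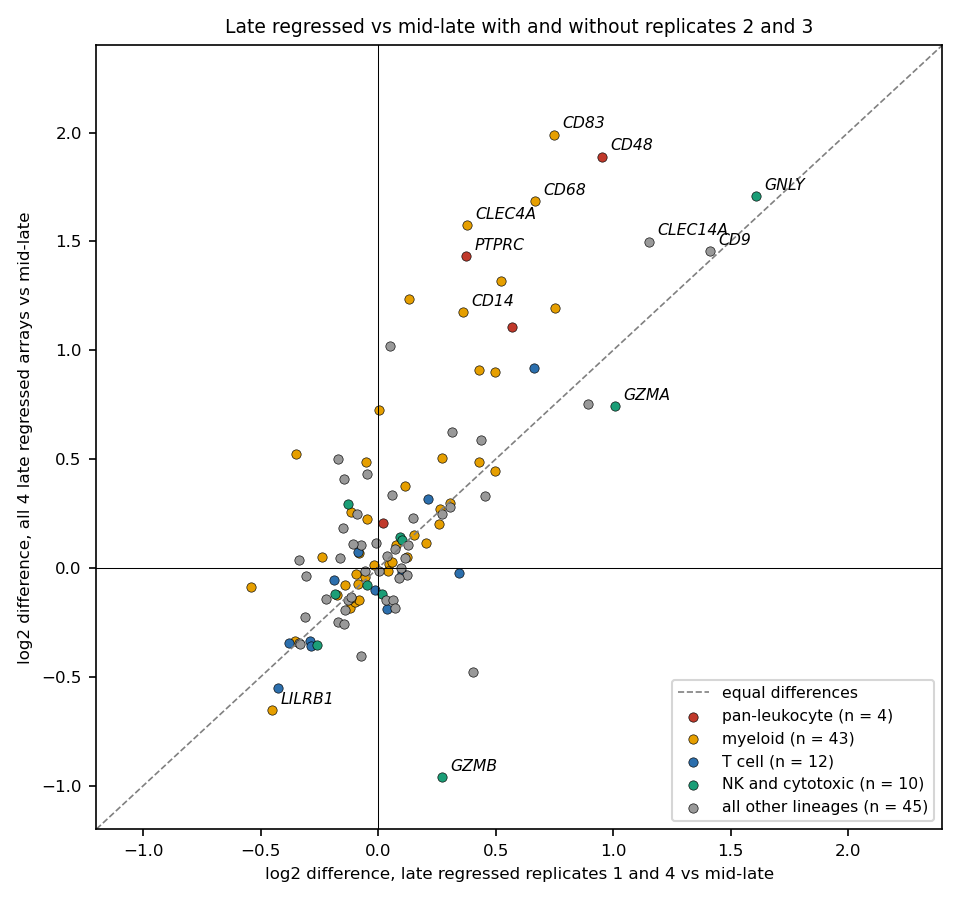
Log2 difference between late regressed and mid-late glands for the 114 members, from late regressed arrays 1 and 4 only (x axis) and from all 4 late regressed arrays (y axis), coloured by lineage, with a dashed line of equal differences. CD83 lies at 0.75 and 1.99 and CD48 at 0.95 and 1.89, far above the line, whereas GNLY (1.61 and 1.71) and CD9 (1.41 and 1.46) lie near it.

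Marker genes of other cells, outside the set, were read in late regressed against mid-late glands, where 7.6% of all genes rose and 5.51% fell. These lists, too, were chosen with earlier results of these data known. Macrophage markers outside the set had a mean level of 7.42 to 8.77 on late regressed and 6.38 to 8.15 on mid-late arrays. Of 10 measured, CYBB rose and the others were not called, and late regressed arrays 1 to 4 exceeded the mid-late mean by 0.78, 0.56, 1.61 and 0.26 on average over them. Steroidogenic luteal cell markers fell in 4 of 10 cases and were lowest on late regressed arrays 2 and 3, at mean deviations of -2.30 and -2.54 from the mid-late mean. Of 7 fibroblast markers DCN, DPT and FBLN1 rose and none fell, the list's median being -0.18 and its mean level 8.23 to 8.80 on late regressed and 7.93 to 8.78 on mid-late arrays. Of 4 smooth muscle and pericyte markers MCAM fell, and none of 7 erythrocyte and platelet markers was called. Of 7 neutrophil markers, 5 were low, the granule genes MPO and ELANE among them, and S100A8 rose. All 4 B cell and plasma cell markers measured were low. The part of cell composition in the differences between groups was not tested.

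Further genes of leukocytes and of granules were read from lists outside the set, also chosen with earlier results of these data known. Of 42 listed signalling genes of leukocytes, 32 were measured, of which 2 rose and none fell in late regressed against mid-late glands, beside 7.6% of all genes that rose and 5.51% that fell. LCP1, the actin-bundling protein L-plastin, read 8.30, 10.84, 11.23 and 8.32 in late regressed against 6.15, 7.25, 7.96 and 7.21 in mid-late glands. Arrays 2 and 3 were again the highest (2.53, SE 0.64, adjusted p = 0.0320). LYN, a SRC-family kinase of myeloid and B cells, rose by 1.05 (adjusted p = 0.0464). The median of the 32 genes was 0.31. Of 12 listed granule and exocytosis genes, 11 were measured, with a median of 0.00. HOPX, a homeodomain protein found in cytotoxic lymphocytes, rose by 0.86 (adjusted p = 0.0348), and RAB27A, a GTPase that docks lytic granules and works in many secretory cells, fell by 1.06 (adjusted p = 0.0234). None of these genes was called between late regressed and late functional or between late functional and mid-late glands. In late regressed against mid-late glands, LYN and HOPX lost their calls on the mean over probe sets. Over the 12 omissions of a single array, the call held in 7 for LCP1, 2 for LYN, 6 for HOPX and 9 for RAB27A. With late regressed arrays 2 and 3 left out together, their differences were 1.16, 0.38, 0.45 and -0.67, and none was called. RAB27A also lost its call without cross-hybridising probe set types.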

How the data were processed

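The deposited table holds 1 log2 value per probe set and array. Per the submitters' processing notes the authors used RMA, of a version not given in the sources used here. Array medians ran from 4.31 to 4.43. Of 52865 probe sets, 158 array controls were left out. The platform annotation gave 1 symbol to 24956 of those tested, several to 361 and none to 27390, and 112 of the 114 members were found in a RefSeq gene table of assembly T2T-MMU8v2.0. The symbols are those of the array's annotation.

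Groups came from the sample titles. All 12 arrays entered 1 fit (limma 3.58.1, R 4.3.3, lmFit and eBayes, no covariate), and p-values were adjusted over all probe sets within a comparison. The labels call the arrays biological replicates, and no batch or scan date is given in the sources used here. Scripts were tested on simulated data.

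Named genes are a panel of leukocyte markers whatever their values, every called member, the 3 largest differences not called per comparison and the called genes of the companion lists. The members, the panel, the lineages and the lists were chosen with earlier results of these data known. Alternatives were low-signal filters, other scalings, a trended robust prior, array weights, the 3′ to 5′ difference or the NC mean as a covariate, a replicate block, fits of 2 groups, the mean over probe sets, removal of cross-hybridising probe set types and leaving out arrays. The number of arrays limits the precision.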

Additional observations from a re-analysis of the deposited data

Results flagged for a closer look

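In the following groups of 4 arrays 1 array lay far from the other 3, by the gap to the nearest array over the group's range (Dixon's criterion at the 95% level). It was applied to 126 groups and met by 11. Chance alone gives this in about 1 in 20 groups. Late functional array 4 was the distant array for 6 genes. It read high for GNLY (7.90, next 6.45), CLEC14A (8.38, next 7.47) and CD82 (6.91, next 6.63), and low for GZMB (10.83, next 12.26), CD14 (9.03, next 9.32) and CLEC4A (5.48, next 6.79). Late regressed array 2 read low for CD4 (4.70, next 5.93) and NKG7 (4.43, next 4.95), and its 3′ to 5′ control difference of 2.52 was high (next 0.70). Late regressed array 3 read low for CD160 (3.80, next 3.94) and for the mean of the NC probe sets (3.48, next 3.57).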

How the results depend on the processing

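All 15 differences called between late regressed and mid-late glands kept their sign under median centring and under a renewed quantile normalization, which moved the median of all genes by 0.05 and -0.07. The count of called members changed most with the arrays used. Over the 12 omissions of a single array it ranged from 6 (without mid-late array 1, beside 5.6% of all genes) to 23 (without late regressed array 4, beside 15.9%) for late regressed against mid-late. For late regressed against late functional it ran from 0 (beside at most 0.219%) to 5 (without late regressed array 1, beside 2.81%). For late functional against mid-late it ran from 0 (beside at most 0.226%) to 3 (without late regressed array 2, beside 2.38%). For the F test it ran from 0 (without mid-late array 2, beside 1.15%) to 16 (without late regressed array 1, beside 13.9%). Against the 15 calls between late regressed and mid-late glands, array weights gave 8 (beside 7.51% of all genes), the NC mean as a covariate 0, the 2 groups alone 6 (4.33%), and leaving out late regressed arrays 2 and 3 together 0 (2.55%). With the NC mean as a covariate no gene at all was called between late regressed and mid-late glands, between late functional and mid-late glands or by the F test, and 3 genes were called between late regressed and late functional glands. The NC mean separates the late from the mid-late arrays, so the covariate and the groups cannot be told apart. Against the 1 call between late functional and mid-late glands, either low-signal filter gave 0 (0.468% and 0.361%), array weights 9 (6.87%), the 3′ to 5′ covariate 3 (2.12%), the NC mean 0, the 2 groups alone 14 (6.34%) and the omission of late regressed arrays 2 and 3 gave 12 (5.71%). The F test's 9 became 14 under array weights (8.14%) and 0 under the NC covariate.

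Replicate numbers did not pair the arrays throughout, and the correlations of same-numbered arrays ran from -0.12 to 0.30. Among late functional arrays, late regressed arrays 1, 3 and 4 matched their own number best (0.19, 0.02 and 0.30), and array 2 did not. Among mid-late arrays, late regressed array 3 matched its own number best (0.17), and no other late regressed or late functional array did. With the replicate number as a block, 14 members were called between late regressed and mid-late (beside 11.3% of all genes) and 5 by the F test (4.12%). Between late regressed and late functional and between late functional and mid-late the count was 0, beside 0% of all genes.

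Among named genes, the sign of the late regressed minus mid-late difference turned as follows. The NC mean as a covariate gave PTPRC -0.48, CD14 -0.55, CD68 -0.20, FCGR3 -0.86, SIGLEC1 -0.18, MS4A7 -0.48, CLEC7A -0.74, CLEC4A -0.30, GZMK -0.088 and CD79A 0.034, and for late functional against mid-late CD84 -0.067. Averaging the probe sets of each gene gave LILRB1 0.93, CD24 0.33, CD79B -0.19, KLRD1 -0.048 and CD1E -0.00041. Without cross-hybridising probe set types LILRB1 was 0.44 and GNLY -0.028. Without late regressed arrays 2 and 3, CD4 was 0.34, GZMB 0.27, NKG7 0.017, KLRD1 -0.13 and CLEC7A -0.24. The 3′ to 5′ covariate gave CD4 0.23 and CD8A 0.063, array weights CD4 0.063 and CLEC7A -0.072, median centring CD4 0.025, and renewed quantile normalization CD79B -0.0039 and CLEC7A -0.0043. Over the 12 omissions of a single array CD8A ranged from -0.28 to 0.084, CD4 from -0.18 to 0.30, CD79B from -0.061 to 0.050, CLEC7A from -0.18 to 0.22, NKG7 from -0.18 to 0.014 and GZMK from -0.00077 to 0.28. Of these genes, LILRB1, CD24, CD1E and GNLY were called between late regressed and mid-late glands with all arrays and the brightest probe set, and CD68, PTPRC and CLEC4A were called there under other settings. The causes of these changes were not tested. Signal near the low-signal mark limits what can be said of 45 members, and 4 arrays per group limit the rest.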

Other observations

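The following were chosen after the values were seen. In the RefSeq gene table, 61 of the members lie in 17 runs of neighbours. In a run each member is at most 5 places from the next in the order of protein-coding genes, so members of a run are not spread independently over the genome. CD244, CD48 and CD84 form such a run, and their differences between late regressed and mid-late glands were 0.92, 1.89 and 1.32, the first 2 of them called on their brightest probe sets. CD5 and CD6, another pair of neighbours, differed by -0.34 and -0.55, CD6 being called, and between late functional and mid-late glands by -0.59 and -0.45, CD5 being called. The 12 members of the NK receptor run, KLRD1, KLRK1, CLEC7A and CD69 among them, ranged from -0.12 to 0.29 in late regressed against mid-late glands and none was called. Only KLRD1, CLEC7A and CLEC1A of this run had a mean above 4.64, and the low signal of the others limits what can be said of them. Granzyme neighbours differed in pairs: GZMK and GZMA by 0.14 and 0.74, and GZMH and GZMB by -0.35 and -0.96, with no call among the 4 genes.

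CD47, the signal that restrains engulfment by macrophages, was not called on its brightest probe set, where late regressed minus mid-late was -0.40 (adjusted p = 0.125). On 3 other probe sets of the gene late regressed glands were higher and called, by 0.76, 1.00 and 0.38. The remaining probe set differed by 0.04. CD9 showed the opposite case, with 2 more probe sets called at 0.87 and 1.12. A second CD48 probe set was called at 1.72, but CD48 lost its call on the mean over its probe sets.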
